A study of Mus musculus with 10 samples.

Results

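Iron homeostasis in the liver was described here through 10 genes, taken from a list of names: Bmp6, Id1, Hamp, Hamp2, Tfr2, Tfrc, Trf, Fth1, Ftl1 and Slc40a1. They are 10 of the 24052 gene symbols in the count tables, and all 10 were among the 11208 genes that passed the filter on low counts. The data are RNA-seq of whole liver from 5 wild-type and 5 Ndrg3 LKO mice, a line made to ask how loss of the protein NDRG3 from hepatocytes alters liver metabolism. Both groups fed ad libitum and are labelled C57BL/6, and the methods name C57BL/6N as the strain of the backcross. The Ndrg3 LKO mice had lost exon 4 of Ndrg3 through a Cre recombinase driven by the albumin promoter, which acts in hepatocytes. Whether all other liver cells kept the gene was not tested here. The study's methods give ages of 8 to 10 weeks, one of its legends gives 10 to 12 weeks, and the labels of these livers give no age or sex. By the methods, males were used unless stated otherwise. The legend of the RNA-seq heat map counts 1 Ndrg3 LKO liver fewer than the 5 analysed here and does not say which.

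Hepcidin, the peptide hormone encoded by Hamp in the mouse, is made by hepatocytes and blocks the iron exporter ferroportin (Slc40a1), which lowers the release of iron into blood. Hepatocytes set its transcription mainly from BMP ligands made by sinusoidal endothelial cells, which act through receptors and SMAD factors, and from interleukin-6, which acts through STAT3. Iron travels in blood on transferrin (Trf), enters cells through transferrin receptor 1 (Tfrc), is sensed by transferrin receptor 2 (Tfr2) with HFE, and is stored in ferritin, whose heavy and light chains are Fth1 and Ftl1.

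Hepcidin, its paralog and the BMP target Id1 were higher in the Ndrg3 LKO livers, Tfr2 and Trf were lower, and the ferritin chains, Tfrc and ferroportin did not pass the test. Of the 10 genes, 4 were called higher and 2 lower at an adjusted p below 0.05 in edgeR's quasi-likelihood test (Bmp6, Id1, Hamp and Hamp2, and Tfr2 and Trf). The call of Bmp6 was the weakest of the 6 and was lost under most alternatives. Over all genes tested, 48.6% were called, with 25.6% higher and 23.0% lower in the Ndrg3 LKO livers, so a call by itself was common in this comparison. For 5 of the 10 genes the groups did not overlap, against 31.5% of all genes tested.

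Libraries held 20872262 to 24747870 counts in the wild-type and 23474693 to 30450057 in the Ndrg3 LKO livers. By these totals alone, 3 counts, taken as the floor of detection, are worth 0.0985 to 0.144 CPM (counts scaled to a common library size). The other CPM values are also divided by TMM factors, which were 0.805 to 0.917 in the wild-type and 0.904 to 1.36 in the Ndrg3 LKO livers. Ndrg3 itself lay at 15.9 to 21.9 CPM in the wild-type and 7.07 to 9.16 CPM in the Ndrg3 LKO livers, and the counts cover all its exons, not the deleted one alone. Ndrg3 LKO replicate 5 stood apart. On the first principal component, which held 68.7% of the variance, it lay at 14.1, between the wild-type livers (-49.9 to -43.0) and the other Ndrg3 LKO livers (51.1 to 56.6). Its summed hepatocyte markers, at 165299 CPM, fell within the wild-type range of 145295 to 186172 CPM, while the other 4 Ndrg3 LKO livers held 41154 to 48568 CPM. Ndrg3 was as low in it as in the others, at 8.25 CPM, and the 10 genes and the counts of related lists are therefore also given without it, as are other genes whose call or size it sets. Of the markers of other cells, 12 of 12 Kupffer cell, 11 of 12 sinusoidal endothelial and 8 of 11 stellate cell genes were called higher, and 7 of 11 hepatocyte genes were called lower. Among the hepatocyte markers, Ass1, named after its values were seen, held only 3 to 37 counts per liver in both groups. In bulk tissue, fewer cells of a type and less RNA per cell cannot be told apart.

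The promoters of Hamp and Hamp2 are shown first because the 2 paralogs rose together and differ in one element. Hamp lies at chr7:31727390-31729036 and Hamp2 at chr7:31707391-31709200 (mm9, minus strand), 18189 bp apart. The lines give 45 bases upstream of each start site from RefSeq (GRCm38.p6, minus strand, 5′ to 3′), at chr7:30944106-30944150 for Hamp and chr7:30924255-30924299 for Hamp2. Capitals mark the position of GGCGCC, the letters of the BMP-responsive element, and of TTCNNNGAA, the letters of a STAT element, in both genes.
Hamp: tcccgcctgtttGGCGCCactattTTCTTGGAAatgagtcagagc
Hamp2: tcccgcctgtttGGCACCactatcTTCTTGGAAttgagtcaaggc
The GGCGCC of Hamp starts 109 bases before the start site, and the same place in Hamp2 carries G4A, counted from 1 at the first base of the element with the Hamp base first. TTCNNNGAA starts 97 bases upstream in Hamp and 94 bases upstream in Hamp2. The windows differ at 5 of 45 bases, and the 2 promoters were 91.9% identical over 247 aligned bases. Searched on both strands, GGCGCC stood in 9.59% and TTCNNNGAA in 7.02% of 32851 promoters over the 250 bases upstream, and neither overlapped the other in these windows. Promoters were found for 7 of the 10 genes. Besides Hamp, Tfrc held GGCGCC, 89 bases upstream of 1 of its 2 start sites. A match of letters is a description, not evidence of binding.

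Hairpins called iron-responsive elements were looked for next, since they let iron regulatory proteins act on ferritin, ferroportin and transferrin receptor 1 mRNA after transcription, which a count of mRNA reads only in part. Each line gives 27 bases of the mouse transcript (mm9 gene models) with the CAGTG loop in capitals. Fth1, Ftl1 and Slc40a1 carried 1 match each in the 5′ UTR, and Tfrc carried 4 in the 3′ UTR, of which the first is shown.
Fth1: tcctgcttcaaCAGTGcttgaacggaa
Ftl1: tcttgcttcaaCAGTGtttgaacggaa
Slc40a1: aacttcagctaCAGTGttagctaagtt
Tfrc: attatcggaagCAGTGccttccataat
Such a match was found in the UTRs of 18 of 22611 coding genes (0.0796%). Tfr2, which these gene models list under an older symbol, was not looked up by name. The 4 of the 10 genes found to hold a match belong to a small class. These 4 genes were also the 4 that were not called, and nothing follows from that about how much protein they make.

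Bmp6, the endothelial ligand that raises hepcidin when liver iron is high, was expressed at a very low level. It lies at chr13:38436995-38592183 (mm9), and the gene Txndc5 overlaps it on the opposite strand. Replicates 1 to 5 held 25, 9, 25, 35 and 15 counts in the wild-type and 69, 119, 73, 68 and 34 counts in the Ndrg3 LKO livers. As normalized values this was 1.40, 0.44, 1.39, 1.61 and 0.893 CPM against 1.98, 2.88, 1.88, 1.94 and 1.60 CPM. Ndrg3 LKO replicate 5 lay just under the highest wild-type liver, and the other 4 lay above it, so the groups overlapped by 1 liver. The mean was 1.15 ± 0.475 CPM (SD, n = 5) in the wild-type and 2.06 ± 0.485 CPM (SD, n = 5) in the Ndrg3 LKO livers. The log2 fold change was 0.85 (SE 0.31, edgeR adjusted p = 0.0412) and 0.94 without replicate 5 (edgeR adjusted p = 0.0265). The call was lost in 10 of 18 alternatives, including 7 of the 10 fits that left out 1 liver, where the adjusted p reached 0.0871. With quantile normalization and limma the log2 fold change was 0.33 (adjusted p = 0.174), and with a replicate block in edgeR it was 0.88 (adjusted p = 0.09).

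Both Bmp6 and the markers of the cells that make it were on average higher in the Ndrg3 LKO group. Whether they moved together within a genotype was not tested. The summed sinusoidal endothelial markers lay at 94.7 to 130 CPM in the wild-type and 199 to 257 CPM in the Ndrg3 LKO livers. Expressed as a percent of that sum, a measure chosen after the data were seen, Bmp6 was 0.464 to 1.28% in the wild-type and 0.773 to 1.37% in the Ndrg3 LKO livers. On that scale its mean log2 difference was -0.06, so the direction of the CPM difference did not hold. Bmp2, the other BMP ligand of these cells, rose by 0.97 on the log2 scale (SE 0.22, edgeR adjusted p = 0.00337), with a range of 3.47 to 7.02 CPM in the wild-type and 6.65 to 13.0 CPM in the Ndrg3 LKO livers. Per endothelial marker Bmp2 overlapped too, at 3.66 to 6.47% and 3.34 to 5.08%. Whether the ligands rose within endothelial cells was not tested.

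Id1, a transcriptional regulator that BMP-SMAD signaling induces directly, showed the largest rise of the 10 genes. It lies at chr2:152561987-152563146 (mm9, plus strand). Wild-type replicates 1 to 5 held 9.09, 3.32, 7.13, 2.20 and 12.4 CPM, against 87.3, 128, 62.7, 105 and 28.2 CPM in the Ndrg3 LKO replicates. Every Ndrg3 LKO liver lay above every wild-type liver, and replicate 5 was the lowest of its group. The means were 6.84 ± 4.19 and 82.2 ± 38.4 CPM (SD, n = 5 each). This was a 12.1-fold difference, with a log2 fold change of 3.60 (SE 0.50, edgeR adjusted p = 2.08e-04) and 3.84 without replicate 5. Counted from the largest rise, Id1 ranked 74 of 11208 genes by its log2 fold change. As a percent of the summed endothelial markers it ran from 1.70 to 11.6% in the wild-type and from 14.2 to 60.7% in the Ndrg3 LKO livers, and the groups still did not overlap. Its mean log2 difference on that scale was 2.68.

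Hepcidin transcripts were uniformly high in the Ndrg3 LKO livers and scattered in the wild-type. Hamp stood at 1144, 293, 617, 881 and 978 CPM in wild-type replicates 1 to 5, against 1800, 1855, 1964, 2142 and 1969 CPM in the Ndrg3 LKO replicates. The lowest Ndrg3 LKO liver exceeded the highest wild-type liver. Means were 783 ± 334 CPM and 1946 ± 131 CPM (SD, n = 5 each), a 2.49-fold difference. The log2 fold change was 1.31 (SE 0.30, edgeR adjusted p = 0.00378), and it was 1.33 without replicate 5. Unlike Id1, Hamp in replicate 5 (1969 CPM) sat in the middle of its group. The exact permutation p over all splits of the livers was 0.00794, the smallest that 5 against 5 allows.

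Hamp2, the second mouse hepcidin gene, is a close copy of Hamp whose product is not known to lower iron export. Its wild-type values were 77.1, 22.7, 68.8, 41.0 and 26.5 CPM, and its Ndrg3 LKO values were 151, 83.2, 104, 123 and 480 CPM. The groups did not overlap, and replicate 5 held more than any other liver. The means were 47.2 ± 24.6 and 188 ± 165 CPM (SD, n = 5 each), with a log2 fold change of 1.99 (SE 0.51, edgeR adjusted p = 0.00733). Replicate 5 set much of this size. Without it the log2 fold change was 1.31 (SE 0.34, edgeR adjusted p = 0.00646), nearly that of Hamp.

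Reads from the paralogs could in part be exchanged, so their similarity was measured. The transcripts were 94.4% identical over 392 aligned bases, and the coding sequences were 93.7% identical. Their longest identical run was 87 bases, and 0 of the 293 windows of 100 bases, the read length, in the Hamp transcript was shared with Hamp2. The Hamp2 to Hamp ratio of counts was 0.0674, 0.0774, 0.111, 0.0465 and 0.0271 in the wild-type, against Ndrg3 LKO values of 0.084, 0.0449, 0.0528, 0.0572 and 0.244. Replicate 5 of the Ndrg3 LKO group had the highest ratio of all. The mean log2 ratio differed by 0.38 (2-sided exact permutation p = 0.548, adjusted over 3 ratios 0.722) and by -0.03 without replicate 5, so no difference in the balance of the paralogs was detectable.

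Over the 10 livers, the 3 genes whose log2(CPM + 1) followed Hamp most closely were Amotl1 (Pearson's r = 0.938), Naip2 (r = 0.921) and Naa20 (r = 0.919). These values are a description, since all 4 genes separate the groups. Naip2 was 1.22 to 2.47 CPM in the wild-type and 5.18 to 7.04 CPM in the Ndrg3 LKO livers.

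**Figure D1:**
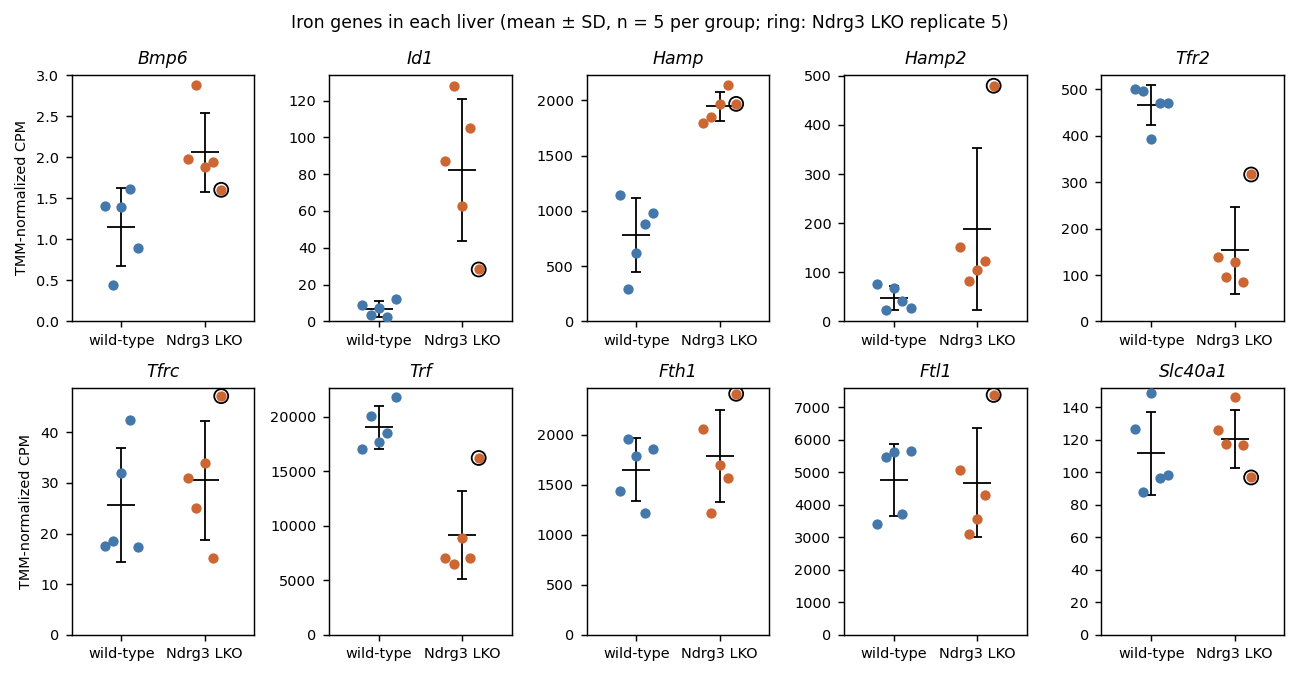
TMM-normalized CPM of the 10 genes on linear axes from 0, with 1 point per liver, the mean and SD of 5 livers per genotype as black bars, and a ring around Ndrg3 LKO replicate 5. Id1, Hamp and Hamp2 sit higher and Tfr2 and Trf lower in every Ndrg3 LKO liver than in any wild-type liver, while Tfrc, Fth1, Ftl1 and Slc40a1 overlap.

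Tfr2, the hepatocyte receptor that senses transferrin-bound iron and helps to raise hepcidin, fell in the same livers in which hepcidin rose. It lies at chr5:138011079-138028709 (mm9, plus strand). Its wild-type values were 501, 496, 394, 471 and 471 CPM, against 139, 95.8, 128, 85.0 and 317 CPM after deletion of Ndrg3. All 5 Ndrg3 LKO livers lay below the lowest wild-type liver, and replicate 5 lay nearest to the wild-type. The means were 466 ± 43.0 and 153 ± 94.2 CPM (SD, n = 5 each), a level 3.05-fold lower in the Ndrg3 LKO livers. The log2 fold change was -1.61 (SE 0.32, edgeR adjusted p = 0.00171) and -2.03 without replicate 5.

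Trf, the plasma iron carrier that hepatocytes secrete, also fell. It lies at chr9:103092538-103132774 (mm9, minus strand) and shares sequence on its own strand with Srprb. Its levels were 17058, 20074, 17656, 18517 and 21830 CPM in the wild-type, and 7043, 6495, 8908, 7058 and 16229 CPM in the Ndrg3 LKO livers. The groups did not overlap, but replicate 5 lay close to the lowest wild-type liver and far above the other 4. The means were 19027 ± 1935 and 9147 ± 4063 CPM (SD, n = 5 each). The log2 fold change was -1.06 (SE 0.27, edgeR adjusted p = 0.00731) and -1.34 without replicate 5. Quantile normalization removed the difference, leaving -0.03 (limma adjusted p = 0.889).

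Within the Ndrg3 LKO group Tfr2 and Trf were highest in replicate 5, whose summed hepatocyte markers fell within the wild-type range. That sum is mostly Alb, at 107850 of 165299 CPM in replicate 5. Hnf4a, Apob and Apoa1 were below every wild-type liver there too, while Alb and Ttr were not. Tfr2 (317 CPM) and Trf (16229 CPM) in replicate 5 also stayed below every wild-type liver. Hamp, also made by hepatocytes, did not follow the sum, at 1800 to 2142 CPM in the 5 Ndrg3 LKO livers. Hamp2 was above every wild-type liver in all 5, but within that group it too was highest in replicate 5. It held 480 CPM there and 83.2 to 151 CPM in the other 4. The part of the hepatocyte markers in the fall of Tfr2 and Trf was not tested.

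**Figure D2:**
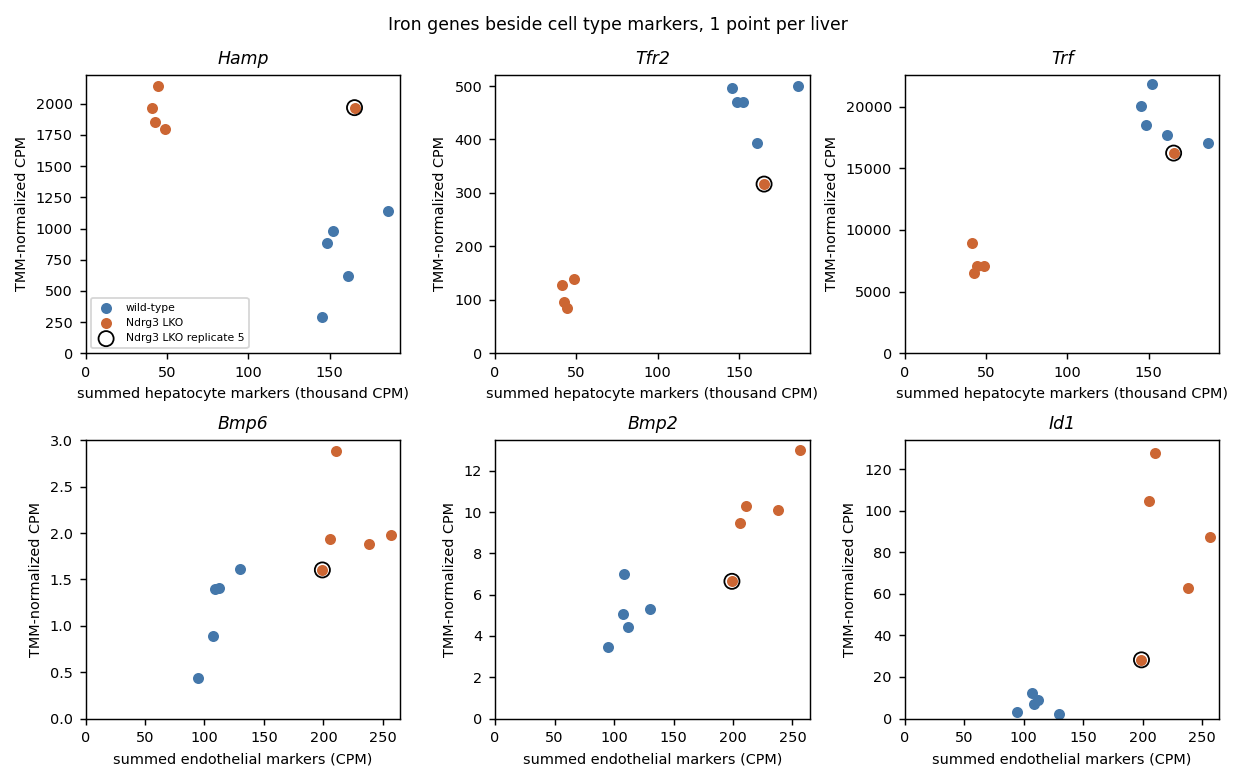
TMM-normalized CPM of 6 genes against summed cell type markers in the same liver (hepatocyte markers in units of 1000 CPM above, endothelial markers in CPM below), 1 point per liver, linear axes from 0. For the summed hepatocyte markers and Trf (16229 CPM), Ndrg3 LKO replicate 5 (ring) lies beside the wild-type. For Hamp (1969 CPM) it lies with its own group. Bmp6 and Bmp2 are on average higher in the Ndrg3 LKO livers, which also hold more endothelial marker signal.

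Tfrc, the receptor that takes up transferrin-bound iron and whose mRNA is held stable when cells lack iron, did not pass the test. It lies at chr16:32609006-32632880 (mm9, plus strand). Its wild-type levels were 17.6, 18.5, 32.0, 42.5 and 17.3 CPM, and its Ndrg3 LKO levels were 31.0, 25.1, 34.0, 15.1 and 47.1 CPM. The groups overlapped over nearly their whole range. Its log2 fold change was 0.25 (SE 0.32, edgeR adjusted p = 0.54), and 0.06 without replicate 5.

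The ferritin chains, which are controlled largely after transcription, were likewise not called. Fth1 (chr19:10057193-10059582, mm9) was at 1440, 1964, 1787, 1218 and 1862 CPM in the wild-type and at 2064, 1216, 1701, 1568 and 2412 CPM in the Ndrg3 LKO livers. Ftl1 (chr7:52713314-52715254, mm9) was at 3398, 5458, 5621, 3718 and 5653 CPM in the wild-type and at 5085, 3101, 3555, 4294 and 7380 CPM in the Ndrg3 LKO livers. Replicate 5 held the highest level of both chains among all 10 livers, and the groups overlapped for both. Log2 fold changes were 0.12 for Fth1 (SE 0.22, edgeR adjusted p = 0.678) and -0.03 for Ftl1 (SE 0.26, edgeR adjusted p = 0.943). Without replicate 5 they were 0.01 and -0.23, and neither was called. Both depended on the scaling: with quantile normalization Fth1 was at 0.85 (limma adjusted p = 9.48e-04) and Ftl1 at 0.82 (limma adjusted p = 0.00496). Of the Ftl1 exon windows of 100 bases, 26.1% also occur elsewhere in the genome, at up to 7 places, against 0 for the other 9 genes, so its counts are less certain. The Ftl1 to Fth1 ratio of counts had a median of 3.04 in the wild-type and 2.55 in the Ndrg3 LKO livers (2-sided exact permutation p = 0.222, adjusted over 3 ratios 0.667). The Tfrc to Fth1 ratio had medians of 0.0122 and 0.0195 (2-sided exact permutation p = 0.722, adjusted 0.722).

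Slc40a1, the iron exporter that hepcidin blocks as a protein, showed no detectable difference in mRNA. It lies at chr1:45964915-45982439 (mm9, minus strand). Its wild-type levels were 127, 87.7, 149, 96.7 and 98.3 CPM, and its Ndrg3 LKO levels were 126, 117, 146, 117 and 96.8 CPM. Every Ndrg3 LKO liver lay within the wild-type range. On the log2 scale the difference was 0.11 (SE 0.17, edgeR adjusted p = 0.602) and 0.21 without replicate 5, and scaling by library size alone gave 0.66 (edgeR adjusted p = 0.0157). Kupffer cells, which recycle iron from red cells, are rich in this transporter, and their summed markers spanned 130 to 354 CPM in the wild-type and 285 to 906 CPM in the Ndrg3 LKO livers.

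**Figure D3:**
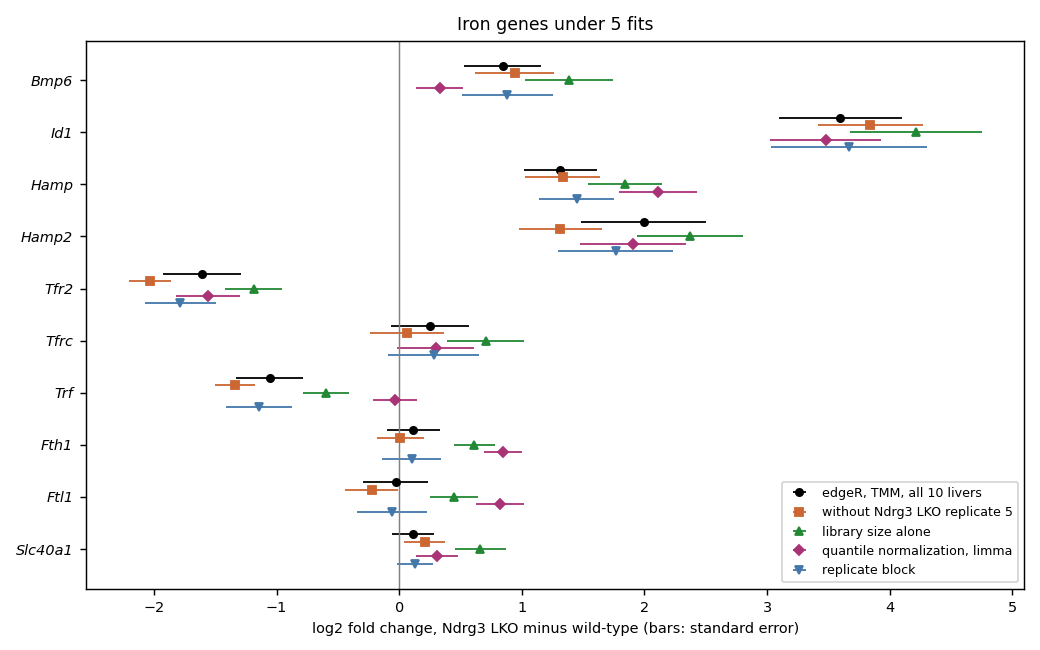
Log2 fold change (Ndrg3 LKO minus wild-type, bars: standard error) of the 10 genes in 5 fits. Hamp, Hamp2 and Id1 stay to the right of 0 and Tfr2 to the left in all 5, Trf reaches -0.03 with quantile normalization, and Fth1 and Ftl1 move to 0.85 and 0.82 there.

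Compared per kb of exon, the order of the genes changed with genotype. In the wild-type livers Trf was the most abundant at 4498 ± 457 CPM per kb, followed by Ftl1 (3559 ± 832), Hamp (1997 ± 851), Fth1 (1910 ± 362), Tfr2 (159 ± 14.7), Hamp2 (108 ± 56.3), Slc40a1 (33.0 ± 7.50), Id1 (5.89 ± 3.62), Tfrc (4.13 ± 1.82) and Bmp6 (0.32 ± 0.133), each as mean ± SD over 5 livers. In this order the ranges of 5 pairs of neighbours overlapped (Trf and Ftl1, Ftl1 and Hamp, Hamp and Fth1, Tfr2 and Hamp2, Id1 and Tfrc), and the other 4 pairs did not. In the Ndrg3 LKO livers Hamp led with 4965 ± 335 CPM per kb, followed by Ftl1 (3495 ± 1258), Trf (2162 ± 961), Fth1 (2069 ± 532), Hamp2 (430 ± 377), Id1 (70.9 ± 33.1), Tfr2 (52.2 ± 32.2), Slc40a1 (35.7 ± 5.28), Tfrc (4.93 ± 1.90) and Bmp6 (0.574 ± 0.135). There too the ranges of 5 pairs of neighbours overlapped (Hamp and Ftl1, Ftl1 and Trf, Trf and Fth1, Id1 and Tfr2, Tfr2 and Slc40a1), and the other 4 pairs did not. Hamp2 lay above Tfr2 in every Ndrg3 LKO liver, whereas the pair overlapped in the wild-type.

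Of 22 genes tested that control hepcidin through BMP and SMAD, 10 were called higher and 2 lower (45.5% and 9.09%), where 25.6% and 23.0% of all genes tested were. Their median log2 fold change was 0.39 against 0.03 over all genes tested. Without replicate 5, when 54.5% of all genes tested were called, 11 were higher and 2 lower, at a median of 0.48. The SMAD targets Id3 (log2 fold change 2.02, SE 0.25, edgeR adjusted p = 8.77e-05), Smad7 (2.03, SE 0.32, edgeR adjusted p = 4.1e-04), Atoh8 (1.40, SE 0.25) and Smad6 (1.39, SE 0.22) rose, and the groups did not overlap for any of these 4. Smad6 and Smad7 are inhibitors that feed back on the pathway. Since the list mixes ligands, receptors, targets and inhibitors, its counts give no direction of signaling. As a percent of the summed endothelial markers Id3 still did not overlap (18.8 to 42.8% against 44.6 to 80.4%), whereas Smad7 (3.85 to 6.11% against 4.70 to 17.4%) and Smad6 (1.33 to 2.16% against 1.86 to 3.68%) did. Id2 was not called, at 0.66 (edgeR adjusted p = 0.0664), although without replicate 5 it was, at 0.82 (edgeR adjusted p = 0.0202).

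The largest rise in this list was Fst, follistatin, a secreted protein that binds activins and some BMPs. It was at 0.781 to 1.22 CPM in the wild-type and 22.3 to 48.5 CPM in the Ndrg3 LKO livers, a log2 fold change of 5.01 (SE 0.27, edgeR adjusted p = 8.92e-07). Hfe, the partner of Tfr2 in iron sensing, rose from a range of 27.0 to 34.3 CPM to one of 46.6 to 60.7 CPM (log2 fold change 0.79, SE 0.12, edgeR adjusted p = 4.35e-04), whereas Tfr2 fell. Hemojuvelin, the BMP co-receptor listed as Hfe2, was at -0.03 (edgeR adjusted p = 0.883). Tmprss6, the protease that cleaves hemojuvelin and so restrains hepcidin, was the largest fall in the list. Its wild-type range was 415 to 596 CPM and its Ndrg3 LKO range was 231 to 385 CPM, a log2 fold change of -0.85 (SE 0.17, edgeR adjusted p = 0.00164). The other gene called lower was Smad4, named after its values were seen, at -0.49 (SE 0.11, edgeR adjusted p = 0.0034).

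Of 16 genes tested of the interleukin-6 and STAT3 arm, 1 was called higher and 9 lower (6.25% and 56.2%), beside 25.6% and 23.0% of all genes tested. The median log2 fold change was -1.41 against 0.03 over all genes tested. Leaving out replicate 5 gave 2 higher and 10 lower, at a median of -1.40. In that fit 54.5% of all genes tested were called, and 51.4% of those calls were higher. Most of these are acute phase proteins that hepatocytes secrete. The hepatocyte markers fell in a similar way, with a median of -1.24 and 63.6% called lower, so the fall is not particular to this list. Orm1 fell most, with 830 to 1461 CPM in the wild-type and 1.77 to 187 CPM in the Ndrg3 LKO livers (log2 fold change -4.59, SE 1.04, edgeR adjusted p = 0.00372), with replicate 5 the highest of its group. Without replicate 5 the log2 fold change of Orm1 was -6.38 (edgeR adjusted p = 3.46e-05). Saa1 was at -3.42 (SE 0.89, edgeR adjusted p = 0.00788), and its wild-type values spread from 157 to 2547 CPM. The highest of these, replicate 2, set much of the size, and without it Saa1 was at -2.00 (edgeR adjusted p = 0.0191). Saa3, a serum amyloid gene that macrophages also express, was the gene called higher (1.52, SE 0.44, edgeR adjusted p = 0.0145). Stat3 itself was at -0.23 (edgeR adjusted p = 0.347) and its feedback inhibitor Socs3 at -0.62 (edgeR adjusted p = 0.126), and neither was called.

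**Figure D4:**
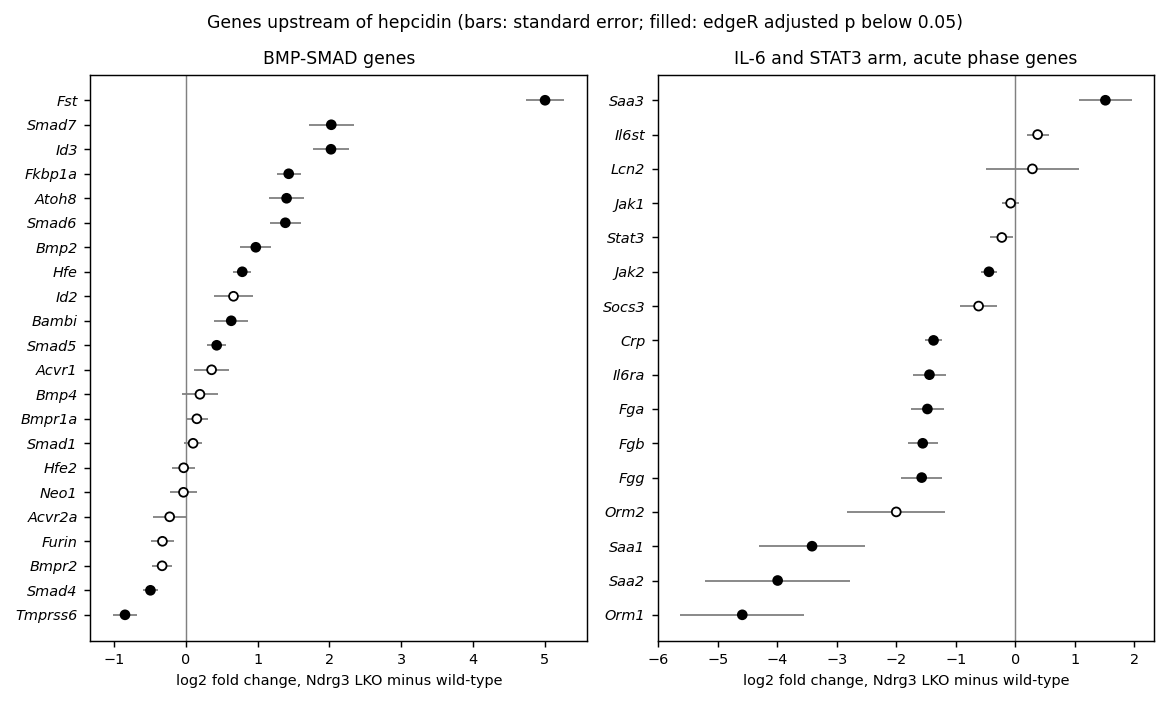
Log2 fold change (Ndrg3 LKO minus wild-type, bars: standard error) of the tested genes in the BMP-SMAD list at left and the interleukin-6 and STAT3 list at right, filled where the edgeR adjusted p was below 0.05. At left 10 of 22 genes are filled to the right of 0, led by Fst at 5.01, and at right 9 of 16 are filled to the left, with Orm1 at -4.59.

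Among 13 genes of iron uptake, export and reduction, 2 were called higher and 6 lower (15.4% and 46.2%, beside 25.6% and 23.0% of all genes tested). Their median log2 fold change was -0.46. Without replicate 5, when 54.5% of all genes tested were called, the counts were again 2 and 6, at a median of -0.36. Scara5, a receptor that binds ferritin, fell most. It held 534 to 1280 counts in the wild-type livers but only 0, 9, 2, 13 and 1 after deletion of Ndrg3 (replicates 1 to 5), at a log2 fold change of -8.24 (SE 0.49, edgeR adjusted p = 1.29e-06), and of -8.91 without Ndrg3 LKO replicate 4. Haptoglobin (Hp), which binds free hemoglobin, was at -1.14 (SE 0.28, edgeR adjusted p = 0.00608) and the copper ferroxidase ceruloplasmin (Cp) at -0.74 (SE 0.20, edgeR adjusted p = 0.00837), and quantile normalization ended both calls (-0.39 and -0.42, with limma adjusted p = 0.191 and 0.154), as did library size alone (-0.60 and -0.19). Cd163, the macrophage receptor for haptoglobin bound to hemoglobin, rose by 1.24 (SE 0.33, edgeR adjusted p = 0.00877) and is itself one of the Kupffer cell markers. The heme carrier hemopexin (Hpx, 0.04, edgeR adjusted p = 0.912, but 0.94 and limma adjusted p = 0.00426 with quantile normalization) and the iron importers Slc39a14 (-0.18, edgeR adjusted p = 0.318) and Slc11a2 (-0.02, edgeR adjusted p = 0.934) were not called.

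Transcripts of both iron regulatory proteins, the proteins that bind the hairpins shown above, were lower, and protein was not measured. Aco1 fell from a range of 256 to 343 CPM to one of 125 to 206 CPM (log2 fold change -0.89, SE 0.16, edgeR adjusted p = 9.05e-04) and Ireb2 from 77.5 to 97.1 CPM to 45.6 to 62.9 CPM (-0.66, SE 0.12, edgeR adjusted p = 0.00124), though with library size alone Ireb2 was at -0.12 (edgeR adjusted p = 0.535). They were the 2 genes called among the 8 tested of sensing, storage and ferritin turnover (25.0%), a smaller share than the 48.6% called over all genes tested. Without replicate 5, when 54.5% of all genes tested were called, 2 others of the 8 were called higher. Ncoa4, which carries ferritin to the lysosome, was at -0.52 (SE 0.34, edgeR adjusted p = 0.224).

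In heme metabolism 3 of 14 genes were called higher and 3 lower (21.4% each), close to the 25.6% and 23.0% of all genes tested. Without replicate 5, when 54.5% of all genes tested were called, 5 were higher and 3 lower. Alas1, the rate-limiting enzyme of hepatic heme synthesis, fell by 1.67 on the log2 scale (SE 0.29, edgeR adjusted p = 7.82e-04). Fech, which inserts iron into the ring, was at -0.67 (SE 0.17, edgeR adjusted p = 0.00618), and with library size alone at -0.16 (edgeR adjusted p = 0.457). Hmox1, which breaks heme down and frees its iron, was at 0.99 (SE 0.24, edgeR adjusted p = 0.00511), and macrophages express it strongly. Of 14 genes of iron-sulphur cluster assembly 2 were higher and 2 lower (14.3% each), below the shares over all genes, and without replicate 5 the counts were 3 and 3. The largest rise and fall were those of Isca2 (0.68, SE 0.13, edgeR adjusted p = 0.00169) and the electron donor Fdx1 (-1.05, SE 0.27, edgeR adjusted p = 0.00744).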

How the data were processed

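RNA-seq counts of 5 wild-type and 5 Ndrg3 LKO livers were used as the authors deposited them, 1 table of whole-number counts per gene symbol and liver. Per the labels, the submitters' processing notes name bcl2fastq, Trim Galore 0.6.4, STAR 2.7.3a and Cufflinks 2.2.1 with the mm9 build. The gene annotation and strand setting of the counting were not given in the sources used here, so genes that overlap on opposite strands may share reads. The labels number separate livers, and p-values measure the spread between them.

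Genes that reached 1 CPM in 5 or more livers entered edgeR 4.0.16 (R 4.3.3; TMM normalization, quasi-likelihood test, Benjamini-Hochberg adjustment over all genes tested, threshold 0.05). The fitting was tested on simulated data. Printed CPM are TMM-normalized. Ratios and single genes were tested by 2-sided exact permutation over all splits of the livers. Alternatives were DESeq2 1.42.0, limma 3.58.1 with pseudocounts of 1 and 0.1 and with quantile normalization, other scalings and filters, a replicate block, and each liver left out. Level per kb divides CPM by the exon length in the mm9 annotation.

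The 10 genes and the related lists were chosen with earlier results of these data known. All 10 genes and a set list of related genes were named whatever their values, with the largest called rise and fall of each of the 6 related lists and the 3 genes most correlated with Hamp.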

Additional observations from a re-analysis of the deposited data

Results flagged for a closer look

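Of 26 groups of 5 livers checked for 1 value far from the other 4, 5 held such a value, and chance gives about 1 in 20 groups. In the Ndrg3 LKO group, replicate 5 stood far above the other 4 livers for Hamp2 (480 CPM), Tfr2 (317 CPM), Trf (16229 CPM) and the Hamp2 to Hamp ratio (0.244). These 4 values come from 1 library and are not independent of each other. In the wild-type group, replicate 3 stood below the other 4 livers for Tfr2, at 394 CPM.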

How the results depend on the processing

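Hamp, Hamp2, Id1 and Tfr2 kept their direction and their call in all 19 alternatives. With 1 liver left out, 5 to 6 of the iron genes were called (3 to 4 higher, 2 lower), 37 to 51 of the related genes, and 4431 to 5962 of all genes. Bmp6 lost its call in 10 of 18 alternatives (log2 fold change 0.33 to 1.39), and relative to summed endothelial markers it was -0.0555 and Id1 2.68, alternatives added after seeing the data. With quantile normalization 1 iron gene was called lower in place of 2, since Trf lost its call. Ftl1 turned positive with library size alone (0.44), quantile normalization (0.82), a mean of at least 5 CPM (0.0322) and in 6 fits without 1 liver, whose log2 fold changes ran from -0.23 to 0.10 over all 10: without wild-type replicates 2, 3 and 5 it was 0.02, 0.04 and 0.04, and without Ndrg3 LKO replicates 2, 3 and 4 it was 0.10, 0.07 and 0.02. The Hamp2 to Hamp log2 ratio difference was -0.0289 without Ndrg3 LKO replicate 5, and that of Tfrc to Fth1 was -9.67e-04 without wild-type replicate 5 and up to 0.48 without wild-type replicate 4. Among the related genes named, those that changed direction had not been called. Library size alone put Hfe2 at 0.53 (there called, edgeR adjusted p = 0.0347), Slc11a2 at 0.53, Slc39a14 at 0.36, Stat3 at 0.29 and Ncoa4 at 0.0697. Quantile normalization put Hfe2 at 0.12, Slc39a14 at 0.0643 and Slc11a2 at 0.0476, and a mean of at least 5 CPM put Hfe2 at 0.0269 and Slc11a2 at 0.0366. Hpx was at -0.00489 and -0.0049 with limma at pseudocounts of 1 and 0.1, -0.00211 with no filter and -0.00307 with the replicate block. With 1 liver left out, log2 fold changes spanned -0.13 to 0.0745 for Hfe2, -0.0921 to 0.0929 for Slc11a2 and -0.18 to 0.16 for Hpx. The cause of these changes was not tested. Scaling by library size alone moved the median over all genes on the log2 scale from 0.03 to 0.56 and the split of calls from 2865 higher and 2578 lower to 5821 and 1010 (52.6% against 85.2% higher), with related genes at 43 higher and 13 lower in place of 18 and 24. There Fth1 was called at 0.61 (edgeR adjusted p = 0.00693), Slc40a1 at 0.66, close to that median.

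Wild-type and Ndrg3 LKO livers share replicate numbers, but these did not pair them: correlations of the deviations of same-numbered livers were -0.36 to 0.04. With the replicate block 4412 genes were called in place of 5443, with 5 iron genes in place of 6, Bmp6 being the gene lost (0.88, edgeR adjusted p = 0.09), and 38 related genes in place of 42, with Saa1 no longer called (-2.52, edgeR adjusted p = 0.0537). Depth limits Bmp6 most, with 9 to 119 counts per liver.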

Other observations

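Erythroid transcripts fell in the same livers, which bears on iron since red cell precursors are its main consumers. Alas2, the erythroid heme synthesis enzyme, chosen here after its values were seen, was at 141 to 165 CPM in the wild-type and 4.43 to 39.1 CPM in the Ndrg3 LKO livers (log2 fold change -3.19, SE 0.44, edgeR adjusted p = 2.01e-04). It carries 1 iron-responsive element match in its 5′ UTR. Both of the 2 erythroid markers that passed the filter were called lower, and the globin genes are listed at 0 in every liver, so the content of red cell precursors cannot be read from them.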
